A study of Homo sapiens with 4 samples.

Results

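The interleukin-1 (IL-1) family ligands IL1A, IL1B, IL1RN, IL18 and IL33 and the receptors IL1R1, IL1R2, IL1RAP, IL1RL1 and IL18R1 were followed in A549 cells with and without extra CBX7. The 10 genes were chosen by symbol, with earlier results of these data known, and all 10 were found among the 28278 genes of the count table. A549 is a human lung adenocarcinoma line, grown here in medium with serum. One stable line was made by lentiviral infection with a control construct (genotype WT in the labels, 2 libraries) and the other with a CBX7 expression construct (CBX7 overexpression, 2 libraries), so both lines went through lentiviral infection. Whether a line is a clone is not given in the sources used here. RNA was sequenced from total RNA, and nothing in the labels says that the 2 libraries of a line came from separate cultures, so every p-value reflects the spread among these libraries alone, which may be technical. Each construct is represented by 1 stable line, so a difference between the lines cannot be told apart from the effect of the construct, and the promoter that drives the CBX7 construct is not given in the sources used here.

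Interleukin-1 alpha (IL1A) and interleukin-1 beta (IL1B) both bind the receptor IL1R1, which then recruits the accessory chain IL1RAP and signals through MYD88, IRAK kinases and TRAF6 to NF-kB. The antagonist IL1RN occupies IL1R1 without signalling, and IL1R2 is a decoy receptor that lacks a signalling domain. Interleukin-18 binds IL18R1 and interleukin-33 binds IL1RL1 (ST2), the latter again with IL1RAP. IL1B and IL18 are made as precursors that caspase-1 cleaves in the inflammasome, whereas IL1A and IL33 are alarmins that can act when released from damaged epithelium.

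With CBX7 overexpression both IL-1 agonists fell: IL1A was 23.9-fold lower and IL1B 8.95-fold lower. Among receptors, IL1RL1 fell 4.55-fold, the shared accessory chain IL1RAP 2.01-fold and IL18R1 1.70-fold. IL18 and IL1R1, which had the highest levels of the 10 genes per kilobase of exon, did not pass the test, and neither did IL1R2 or IL33. IL1RN, the antagonist, went from 20 and 28 counts to 3 and 0, and missed the threshold. In all, 5 of the 10 members were called lower and 0 higher, where a call is an adjusted p under 0.05 in edgeR's quasi-likelihood test. By the same rule 13.9% of the 17271 tested genes were called lower and 10.5% higher. The members were chosen with earlier results of these data known, so setting them beside these shares is a description only. Of the 10 members, 4 were called lower with a log2 fold change of -1 or less, against 5.36% of all tested genes. Of these, IL1RAP (-1.01) was nearest the cut, and alternative fits put it between -1.18 and -0.80. At an unadjusted p under 0.05, 0 of the 10 were higher as well. DESeq2 and limma-voom each called 6 members lower and 0 higher, the sixth being IL1RN. Both CBX7 libraries lay below both controls for 7 members and above them for 1, as they did for 31.9% and 30.8% of all tested genes. All 10 members passed the filter on low counts.

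The labels and depth were checked on the same libraries. CBX7 itself rose from 689 and 596 counts to 1783 and 1550 (log2 fold change 1.11, edgeR adjusted p = 0.000141). SOCS3, named in the series title, fell from 3771 and 2783 counts to 1040 and 742 (log2 fold change -2.13). Total counts per library ran from 69877585 to 90765502. Of the epithelial markers listed for A549, KRT8 and KRT18 were abundant in every library (at least 320954 counts), whereas SFTPB had 0 to 8 counts and NKX2-1, a lung lineage factor, 26 to 119. Of the 9 listed, 8 were tested: 1 was called higher, 2 lower and 5 not called (log2 fold changes -1.75 to 1.61). Over all tested genes, 10.5% were called higher and 13.9% lower. Genes called higher numbered 1809 and genes called lower 2399, and with library totals in place of the TMM scaling these were 2487 and 2033. Leaving out CBX7 library 1 gave 1021 genes called higher, and leaving out the second gave 1121.

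Because leukocytes are a main source of IL-1, their markers were read in the same libraries. Of 15 leukocyte and macrophage markers, 5 were tested, of which CD68 and ITGAM were called lower and CD14 higher. The summed level of the 15 was 167 and 171 CPM in the controls and 28.1 and 27.7 CPM with CBX7. CPM is the count as a share of the TMM-scaled library total, multiplied by 1e6. Without CD68 and ITGAM, chosen after their values were seen, it was 1.88 to 2.35 CPM in the controls and 3.26 to 3.77 CPM with CBX7. Of the 15 markers, 3 were at 0 in all 4 libraries (CD3E, MS4A1 and SPI1), and PTPRC (CD45) had 0 to 9 counts. Summed levels of 9 fibroblast markers, with THY1 at 0, were 7.37 and 9.22 CPM in the controls and 8.91 and 8.08 CPM with CBX7. Those of 8 endothelial markers, with TIE1 at 0, were 1.67 and 1.07 CPM in the controls and 3.54 and 3.88 CPM with CBX7. Among tested markers, 1 of 6 for fibroblasts was called lower and 1 of 4 for endothelium higher. Over all tested genes, 13.9% were called lower and 10.5% higher. The part of these markers in the IL-1 family changes was not tested.

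IL1A and IL1B are neighbours on chromosome 2, and IL1RN lies in the same cluster, so the bases before a transcription start of each are shown to let their letters be compared. The sequences are RefSeq promoter windows of build GRCh38.p14, the 250 bases before the start, read 5′ to 3′ on the strand of the gene. They lie at chr2:112784494-112784743 (minus strand), chr2:112836780-112837029 (minus strand) and chr2:113117721-113117970 (plus strand), and the IL1RN start shown lies inside the span of the gene. Capitals mark matches to TGANTCA, the site of AP-1 factors such as FOS and JUN.
IL1A: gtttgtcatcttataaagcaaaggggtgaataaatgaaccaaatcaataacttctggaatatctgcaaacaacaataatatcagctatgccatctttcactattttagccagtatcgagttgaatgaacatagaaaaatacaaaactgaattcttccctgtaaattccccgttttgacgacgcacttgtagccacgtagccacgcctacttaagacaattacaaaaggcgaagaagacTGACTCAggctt
IL1B: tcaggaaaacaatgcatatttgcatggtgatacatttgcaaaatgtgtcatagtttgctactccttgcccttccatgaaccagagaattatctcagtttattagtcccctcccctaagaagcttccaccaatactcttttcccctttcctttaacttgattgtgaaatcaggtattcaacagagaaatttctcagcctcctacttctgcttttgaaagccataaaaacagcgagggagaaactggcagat
IL1RN: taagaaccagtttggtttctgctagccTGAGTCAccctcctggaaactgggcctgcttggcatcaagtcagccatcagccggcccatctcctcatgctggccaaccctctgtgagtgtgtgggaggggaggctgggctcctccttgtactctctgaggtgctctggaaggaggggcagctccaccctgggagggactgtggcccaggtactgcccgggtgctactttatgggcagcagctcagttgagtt
Each printed window is the most upstream matched for its gene (of 2 for IL1A, 1 for IL1B and 3 for IL1RN). The match in IL1A lies 12 to 6 bases before the start and that in IL1RN 223 to 217 bases before it. The other IL1A window also holds TGAGTCA, 55 to 49 bases before its own start. The other IL1RN windows hold no TGANTCA. The IL1B window holds no match. The motifs searched on both strands were TGANTCA, the core of the interferon-stimulated response element (a pair of GAAA runs with any pair of bases between) and the kappaB consensus. The first reads the same on both strands, and each place was counted once within a window. Windows were matched for 9 of the 10 members, 19 windows in all because some genes have several starts. TGANTCA was in 4 of them, from 3 members (IL1A, IL1RN and IL1RL1), against 6.57% of all 35116 windows of this length. The interferon element core was in 3, from IL1RN and IL18R1, against 3.02%. The kappaB consensus was in 0 of 19, against 5.21%. A match is a description of the letters only, and windows of 1 gene can overlap. Overlapping IL1A windows share the same TGACTCA site, and overlapping IL1RN windows share the same interferon core. The window counts therefore hold these sites more than once and are not like for like with the shares over all windows.

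IL1A (chromosome 2, 112773925 to 112784493, GRCh38) had 7.95 and 6.42 CPM in the controls and 0.256 and 0.344 CPM with CBX7. Both CBX7 libraries lay far below both controls, and the gap exceeded the spread within either group. The raw counts were 685 and 438 against 24 and 31. The group means were 7.19 ± 1.08 and 0.300 ± 0.0618 CPM (SD, n = 2), a log2 fold change of -4.58 (SE 0.327, edgeR adjusted p = 1.69e-07). Of all tested genes, 1.18% had a lower log2 fold change than IL1A. In bulk RNA, fewer cells that express a gene and less RNA per cell cannot be told apart.

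**Figure D1:**
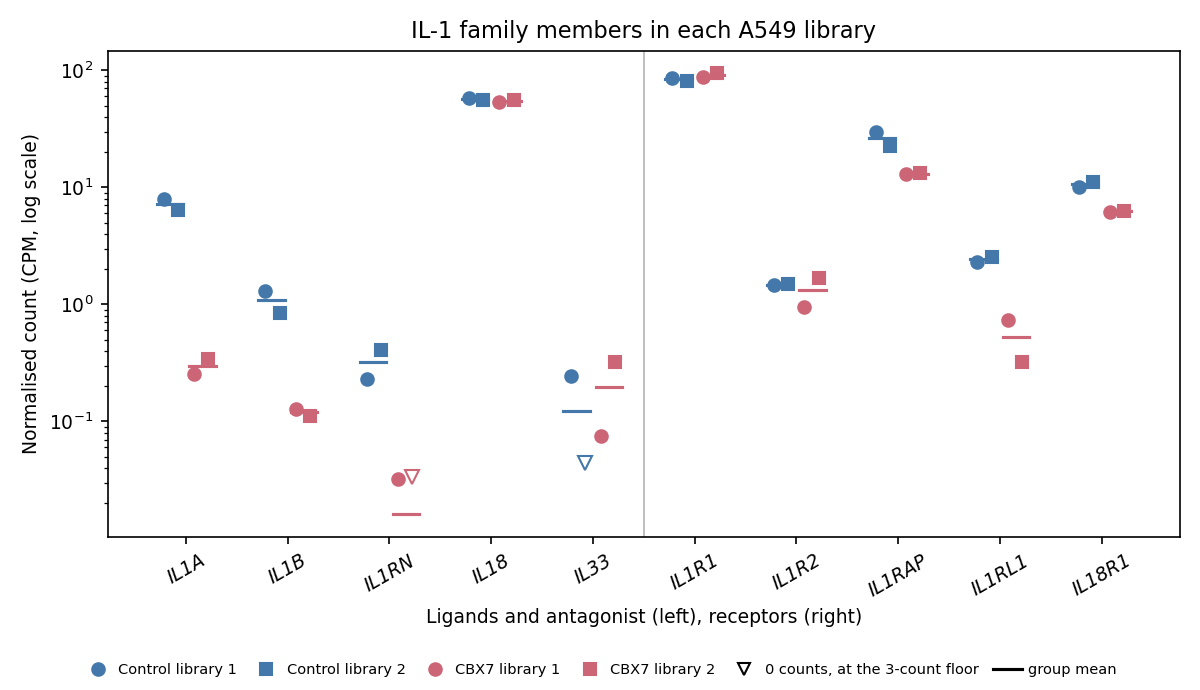
Normalised count (CPM, log scale) of each IL-1 family member in the 4 libraries; circles and squares are libraries 1 and 2 of each line, short lines are group means, and open triangles stand for 0 counts drawn at the 3-count floor. In 7 members both CBX7 libraries lie below both controls, by the widest margin for IL1A, IL1B and IL1RN and narrowly for IL18, while IL18 and IL1R1 lie between 53.7 and 95.2 CPM in all 4.

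IL1B (chromosome 2, 112829751 to 112836779) was at 1.31 and 0.850 CPM in the controls and 0.128 and 0.111 CPM with CBX7. The controls differed from each other more than the CBX7 libraries did, but the groups did not overlap. The counts behind these levels were 113 and 58 against 12 and 10. The log2 fold change was -3.16 (SE 0.701, edgeR adjusted p = 0.00482). The call rested on control library 1, without which the adjusted p was 0.0831 at a log2 fold change of -2.81.

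IL1RN (chromosome 2, 113099360 to 113134014), the receptor antagonist, had few counts in both lines. Its 20 and 28 control counts correspond to 0.232 and 0.410 CPM. With CBX7 it had 3 counts in library 1 and 0 in library 2, where a floor of 3 counts corresponds to 0.0333 CPM. Both CBX7 libraries were below both controls. The control-to-CBX7 ratio was 19.1 with a 95% exact counting interval of 6.14 to 95.6, which covers counting error only. The fitted change missed the threshold with edgeR (adjusted p = 0.0559) and passed it with DESeq2 (0.0454) and limma-voom (0.0289). It missed under every other alternative that gave a value, such as edgeR without the low-count filter (adjusted p = 0.0899) or with a replicate block (0.117). The counts are estimates, so a listed 0 may also mean that no estimate was made.

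IL18 (chromosome 11, 112143260 to 112164094) was at 58.0 and 56.2 CPM in the controls and 53.7 and 56.0 CPM with CBX7. Control library 2 and CBX7 library 2 were nearly equal, and the groups lay next to each other without overlap. The log2 fold change was -0.06 (95% interval -0.29 to 0.17, edgeR adjusted p = 0.764), which is a fold of 0.820 to 1.13. The sign turned under library-total scaling, to 0.0095.

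IL33 (chromosome 9, 6215149 to 6257983) was scarce and uneven: control libraries gave 21 and 0 counts, CBX7 libraries 7 and 29. The groups overlapped, and libraries of the same line differed from each other more than the lines did. The fitted log2 fold change of 0.66 had an interval of -2.42 to 3.75 (edgeR adjusted p = 0.799), and it turned negative without control library 2 (-0.29) or CBX7 library 2 (-0.70). At this depth no difference was detectable in either direction.

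IL1R1 (chromosome 2, 102070390 to 102179874), the signalling receptor of both agonists, was at 85.8 and 81.6 CPM in the controls and 87.2 and 95.2 CPM with CBX7. CBX7 library 2 was the highest of the 4, the other 3 lay close together, and the groups did not overlap. The log2 fold change was 0.12 (95% interval -0.11 to 0.35, edgeR adjusted p = 0.459), which is a fold of 0.928 to 1.28. The decoy receptor IL1R2 (chromosome 2, 101991960 to 102028544) was at 1.46 and 1.48 CPM in the controls and 0.951 and 1.70 CPM with CBX7. Its CBX7 libraries lay on either side of the controls. The interval of its log2 fold change ran from -1.05 to 0.75 (edgeR adjusted p = 0.846), and the sign turned without CBX7 library 1 (0.21).

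IL1RAP (chromosome 3, 190514085 to 190659750), the accessory chain that IL-1 and interleukin-33 receptors share, had 2574 and 1554 counts in the control line and 1217 and 1187 in the CBX7 line, or 26.3 ± 5.03 and 13.1 ± 0.114 CPM (SD, n = 2). The CBX7 libraries were nearly equal and both lay below the lower control. Its log2 fold change was -1.01 (SE 0.154, edgeR adjusted p = 0.000300). GENCODE release 29 places 535 bases of IL1RAP exon over a long non-coding RNA on the same strand, so some of its reads could belong to either.

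IL1RL1 (chromosome 2, 102311563 to 102352356), the interleukin-33 receptor ST2, was at 2.29 and 2.55 CPM in the controls and 0.737 and 0.322 CPM with CBX7. The CBX7 libraries were apart from each other by more than the controls were, and both lay below them. The log2 fold change was -2.19 (SE 0.458, edgeR adjusted p = 0.00333), and ran from -2.90 without CBX7 library 1 to -1.70 without CBX7 library 2, with the call kept in both. A gene-level count does not separate the membrane form from the soluble form that also arises from this gene.

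IL18R1 (chromosome 2, 102355796 to 102398776), the ligand-binding chain for interleukin-18, was at 10.1 and 11.2 CPM in the controls and 6.14 and 6.33 CPM with CBX7. Both lines were even within themselves and did not overlap. The log2 fold change was -0.77 (SE 0.185, edgeR adjusted p = 0.00816), and the call ended without CBX7 library 1 (adjusted p = 0.0601). IL18R1 and IL1RL1 share 95 bases of exon on the same strand in GENCODE release 29, so a few reads could be counted for either.

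**Figure D2:**
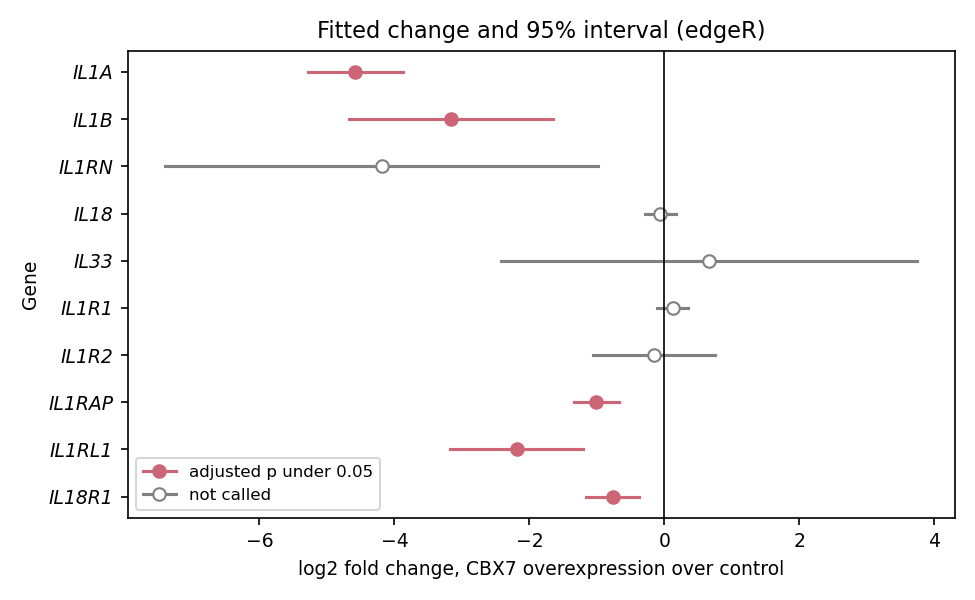
Fitted log2 fold change (CBX7 overexpression over control) of each member with its 95% interval from edgeR; filled red points passed an adjusted p of 0.05 and open grey points did not. The intervals of IL18 and IL1R1 are narrow around 0, while those of IL1RN (-7.40 to -0.98) and IL33 (-2.42 to 3.75) are wide.

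Per kilobase of exon, the scale on which genes can be set beside each other, the order of levels shifted between the lines. Exon lengths are unions over GENCODE release 29 transcripts, which may differ from the annotation behind the counts. IL18 and IL1R1 were first and second in the control line, at 21.7 ± 0.489 and 11.8 ± 0.419 CPM per kb (SD, n = 2), and again with CBX7, at 20.9 ± 0.633 and 12.9 ± 0.808. IL1A came next in the controls at 3.38 ± 0.510 CPM per kb, above the range of IL18R1 (2.44 ± 0.175), whose own range overlapped that of IL1RAP (2.28 ± 0.435). With CBX7, IL1A was sixth at 0.141 ± 0.0291 CPM per kb, below IL18R1 (1.43 ± 0.0307), IL1RAP (1.13 ± 0.00989) and IL1R2 (0.431 ± 0.172), and its range overlapped that of IL1RL1 (0.0921 ± 0.0511). IL1B was eighth in the controls at 0.349 ± 0.105 CPM per kb, with a range that overlapped IL1RL1 (0.421 ± 0.0324), and ninth with CBX7 at 0.0386 ± 0.00395, where its range overlapped that of IL33 (0.0609 ± 0.0536). IL1RN and IL33 held the last places in the controls with overlapping ranges, at 0.0987 ± 0.0387 and 0.0375 ± 0.0530 CPM per kb. IL1RN came last with CBX7.

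Of 12 other ligands, receptors and soluble regulators, 8 had too few counts to be tested. The skin-type cytokines IL36A, IL36B, IL36G, IL37 and IL1F10 and the antagonist IL36RN had 0 to 4 counts in every library, and the receptors IL1RL2 and IL1RAPL2 had 0 to 8. IL18RAP, the second chain of the interleukin-18 receptor, gave 12 and 25 counts without CBX7 and 24 and 13 with it (edgeR adjusted p = 0.874). IL1RAPL1, a neuronal relative of IL1RAP, had 7 and 8 against 19 and 9 (edgeR adjusted p = 0.786).

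Of the 4 tested genes among these 12, 1 was called, beside 24.4% of all tested genes in either direction. This was IL18BP, the secreted protein that neutralises interleukin-18, which fell 8.26-fold. It was at 28.9 and 19.8 CPM in the controls and 3.43 and 2.46 CPM with CBX7, with no overlap between the lines (log2 fold change -3.05, SE 0.221, edgeR adjusted p = 2.87e-07). Its own ligand IL18 had a log2 fold change of -0.06. In GENCODE release 29, IL18BP shares 675 bases of exon with NUMA1 on the opposite strand, and the strandedness of the libraries is not given in the sources used here, so its level is uncertain. SIGIRR, an inhibitory receptor of the family, had a control level per kilobase of exon like that of IL18BP, at 5.72 against 5.63 CPM per kb. It was at 1505 and 1538 counts against 1926 and 1981 (log2 fold change 0.09, edgeR adjusted p = 0.735).

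Among genes that process or release the ligands, 4 of 18 tested were called lower, 1 higher and 13 not called. Their median log2 fold change was -0.22 against -0.00015 over all tested genes, of which 13.9% were called lower and 10.5% higher. This list, like the members, was chosen with earlier results of these data known. The inflammatory caspase CASP4 fell from 31.3 ± 0.377 to 9.75 ± 0.934 CPM (n = 2; edgeR adjusted p = 9.05e-07). GSDMD, the pore through which mature IL1B leaves cells, fell 1.81-fold, and CASP8 fell 1.68-fold. CARD16, a CARD-only relative of caspase-1, went from 167 and 93 counts to 0 and 0. Its control mean was 50.6 times a floor of 3 counts per library, which leaves out the spread between the controls. CASP1, the enzyme that cleaves IL1B and IL18, had 846 and 465 counts against 0 and 37 and was not called (edgeR adjusted p = 0.179). CASP1 and CARD16 are close in sequence, so the split of reads between them is uncertain. PYCARD (ASC), the adaptor that joins sensors to caspase-1, was listed at 0 in all 4 libraries. The sensors NLRP3 and AIM2 had at most 39 counts. CAPN1, a large subunit of the calpains that cut the IL1A precursor, rose 1.33-fold (edgeR adjusted p = 0.00747), and this call ended without CBX7 library 1 (adjusted p = 0.0968).

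Downstream of the receptors, 8 of 23 tested signalling genes were called lower, 0 higher and 15 not called (median log2 fold change -0.10), beside 13.9% lower and 10.5% higher over all tested genes. DESeq2 and limma-voom also called 0 of them higher, and 1 of them, TOLLIP, had an unadjusted p under 0.05 in that direction with edgeR. This list was also chosen with earlier results of these data known. The adaptor MYD88 fell from 246 and 258 CPM to 40.8 and 39.7 CPM, a log2 fold change of -2.65 (SE 0.103, edgeR adjusted p = 1.69e-10). The kinase IRAK2 fell from 80.7 ± 2.79 to 21.5 ± 2.65 CPM (n = 2). MAP3K8, a kinase of the ERK branch, fell 2.64-fold, and TNIP1, which works with the NF-kB brake TNFAIP3, fell 2.43-fold. TRAF6, TAB2, TIFA and SQSTM1 were the other members called lower, with log2 fold changes of -0.73 to -0.39. IRAK1 and IRAK4, which act beside IRAK2 at the receptor, had log2 fold changes of 0.20 and -0.10 and were not called.

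Genes that IL-1 is known to induce were lower in most cases: 29 of 35 tested were called lower, 1 higher and 5 not called, with a median log2 fold change of -2.08, beside the same 13.9% lower and 10.5% higher over all tested genes. Many of them are also induced by other stimuli, and the list was written with earlier results of these data known. TNFAIP3, CXCL8, CXCL2 and NFKB2 had the smallest p, with folds of 18.5, 7.39, 6.58 and 5.15 lower. The colony-stimulating factors CSF2 (16 and 44 control counts) and CSF3 (42 and 24) went to 0 counts in both CBX7 libraries. So did the adhesion molecule VCAM1 (48 and 10). Their control means were 12.7, 12.9 and 10.8 times a floor of 3 counts per library, which leaves out the spread between the controls. PTGES, which makes prostaglandin E2, was the member that rose, from 50.4 ± 6.44 to 76.1 ± 4.66 CPM (n = 2; edgeR adjusted p = 0.00240). PTGS2, the cyclooxygenase upstream of it, was at 11457 and 7283 counts against 10305 and 8699 and was not called.

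**Figure D3:**
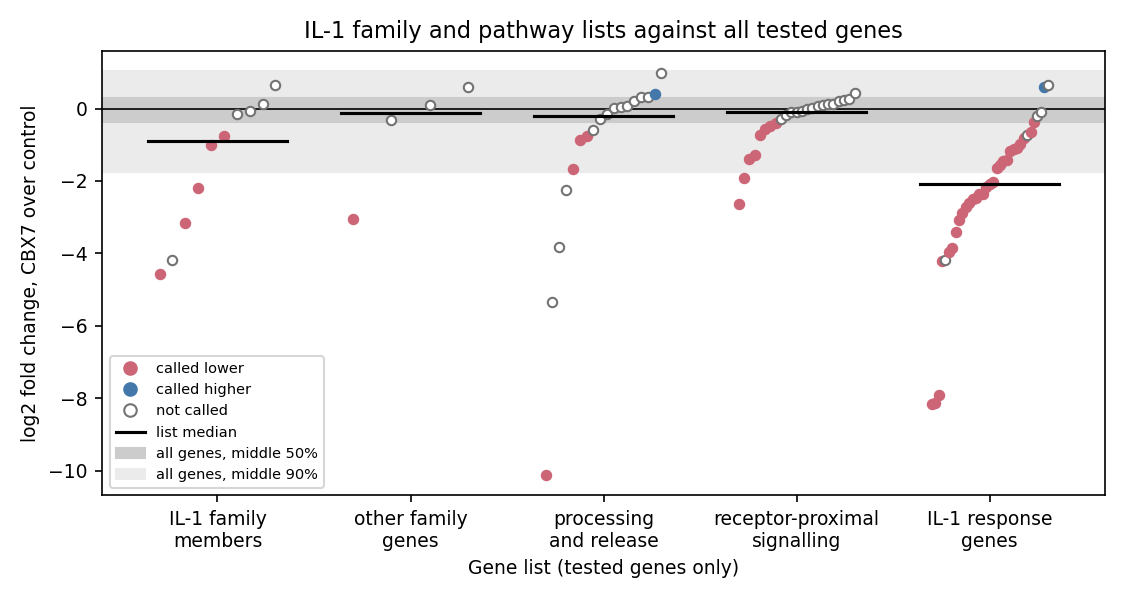
log2 fold change (CBX7 overexpression over control) of each tested gene in 5 lists, with list medians as black lines and grey bands for the middle 50% (-0.37 to 0.30) and 90% (-1.74 to 1.04) of all tested genes. Of the 35 tested IL-1 response genes 29 were called lower, with a median of -2.08, whereas the medians for processing and signalling genes lie at -0.22 and -0.10; values for the 4 genes at 0 in both CBX7 libraries depend on the fit and are no bound.

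Most family genes sit in 2 clusters on chromosome 2, which allowed the members to be set beside their neighbours. In the ligand cluster, IL1A lies at -55.8 kb and IL1RN at 269.6 kb from the left end of IL1B, with the near-silent IL36 and IL37 genes between. Of 8 tested flanking genes, 1 was called (POLR1B), beside 24.4% of all tested genes in either direction. POLR1B had a log2 fold change of -0.43 (edgeR adjusted p = 0.00923). This call ended without CBX7 library 1 (log2 fold change -0.42) or CBX7 library 2 (-0.42). CKAP2L, the listed gene next to IL1A, was at 0.28 and PSD4, next to IL1RN, at 0.36, and neither was called. TTL, CHCHD5, SLC20A1, PAX8 and NT5DC4 were between -0.80 and 0.62 and not called. TTL was near the threshold (0.29, edgeR adjusted p = 0.0742) and was called higher under 5 of 11 alternatives, with DESeq2 (0.0414) among them. CKAP2L was called higher under library totals (adjusted p = 0.0358), and CHCHD5 (0.0421) and PSD4 (0.0238) when control library 2 was left out.

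In the receptor cluster the order is IL1R2, IL1R1, IL1RL2, IL1RL1, IL18R1 and IL18RAP, so the called IL1RL1 and IL18R1 lie side by side. Beyond IL18RAP, the sodium-proton exchanger SLC9A2 rose from 16.5 ± 0.594 to 58.3 ± 6.65 CPM (n = 2; log2 fold change 1.82, edgeR adjusted p = 1.43e-07). TMEM182 was also called higher, at 0.58, as was MFSD9, at 0.44, for which no RefSeq position was matched. SLC9A4 had 8 and 10 counts against 32 and 25 and was not called. On the other side, MAP4K4 and RNF149 were called lower, at -0.43 and -0.65, while CNOT11 and TBC1D8 were not called and RFX8 had too few counts. Of the 8 tested neighbours, 3 were called higher and 2 lower, beside 10.5% higher and 13.9% lower over all tested genes. Single libraries decided some of these calls: the adjusted p of TMEM182 became 0.0922 when control library 1 was left out and 0.213 when CBX7 library 1 was. That of MFSD9 became 0.138 and 0.246 in the same way, and 0.0503 when CBX7 library 2 was left out. That of MAP4K4 became 0.0955 when CBX7 library 2 was left out.

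**Figure D4:**
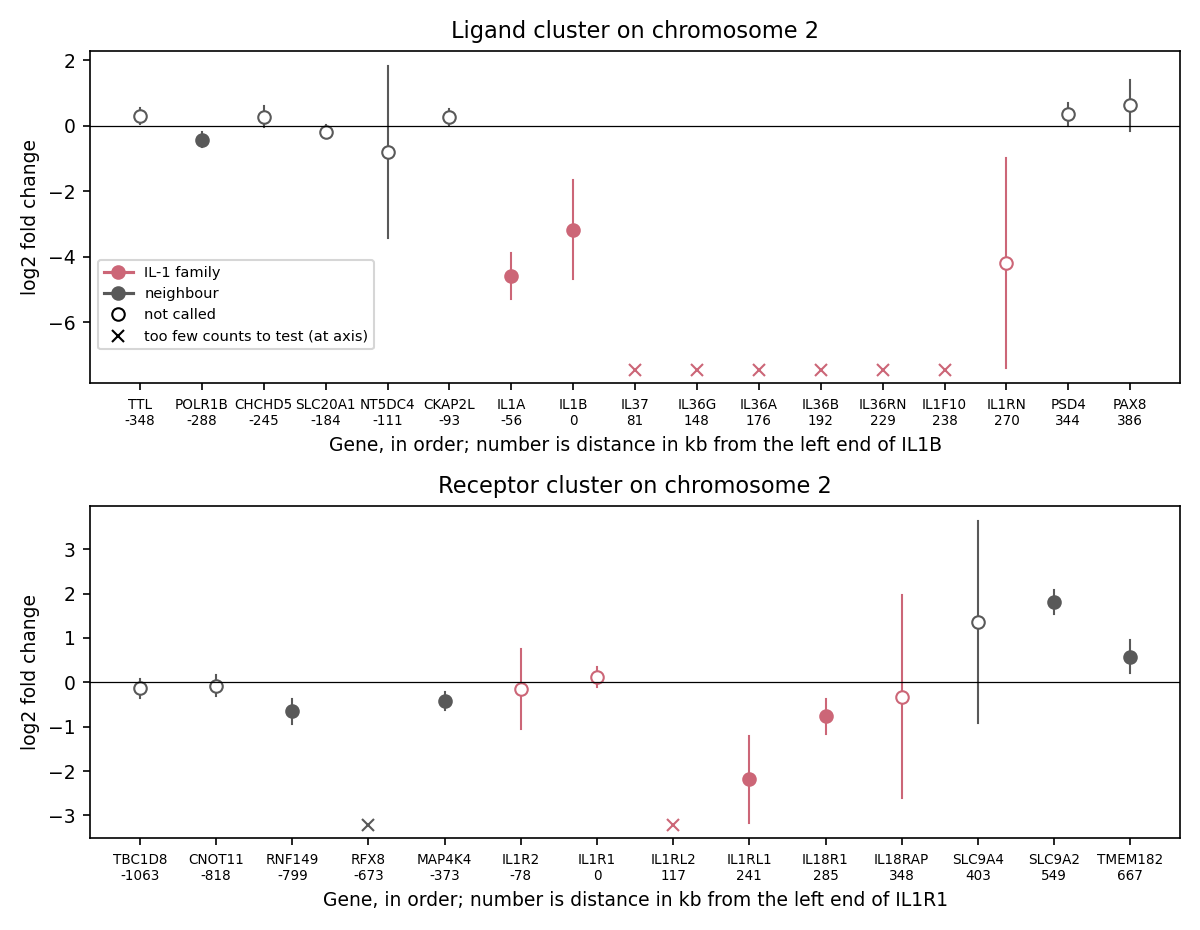
Fitted log2 fold change with 95% interval for the listed genes of the ligand cluster (top) and the receptor cluster (bottom), in their order along chromosome 2, with the distance in kb under each name; MFSD9, for which no position was matched, is not drawn; family genes are red, neighbours grey, open points were not called and crosses mark genes with too few counts. IL1A (-4.58), IL1B (-3.16) and IL1RN (-4.19) lie below their neighbours, and SLC9A2 (1.82) stands above the receptor genes.

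For each called member, the tested genes with the closest profile over the 4 libraries were found among 14531 genes, by the root mean square (RMS) difference in log2 CPM after centring on the control mean. With 4 libraries this is a description only. Nearest to IL1A were RET, a receptor kinase (RMS 0.100), and DDX60L (0.114), and nearest to IL1B were IL18BP (0.104) and SCN3A (0.134). IL1RAP was closest to ZMYM5 (0.0137) and PSG4 (0.0255). IL1RL1 was closest to N4BP2L1 (0.100) and CRYBG1 (0.121), and IL18R1 to CAV1 (0.0257) and PDLIM1 (0.0271).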

How the data were processed

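RNA sequencing gave 1 count per gene and library for 2 control and 2 CBX7 libraries. The deposited values are treated as estimated counts: the authors' tools, per the submitters' processing notes, included StringTie 2.2.1 and HISAT2 2.2.1, with DESeq2 and build hg38, in no stated role. The sources used here give neither annotation nor strandedness. All values were whole already, so rounding changed none.

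Genes kept by filterByExpr (17271) were scaled with TMM and tested with edgeR 4.0.16 (R 4.3.3; robust quasi-likelihood fit, group as the only term, all 4 libraries, Benjamini-Hochberg over all tested genes). The F statistic gave the standard errors and 95% intervals. The tests were checked on simulated counts. DESeq2 1.42.0, limma-voom (limma 3.58.1), other scalings and filters, a replicate block and leaving out each library were alternatives. Positions came from RefSeq (GRCh38.p14).

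Members and lists were chosen with earlier results of these data known. All members, the other family genes and cluster neighbours are named; in the remaining lists, up to 4 called genes in each direction with the smallest p; others were named after their values were seen.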

Additional observations from a re-analysis of the deposited data

How the results depend on the processing

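Of the 54 values that the alternatives gave for the 5 called members, 52 kept direction and call; IL1B fell below the mean count of 50 and has no value under that filter. The 2 that lost the call were IL1B without control library 1 (log2 fold change -2.81) and IL18R1 without CBX7 library 1 (-0.74). IL1RN passed under 2 of its 10 alternatives, DESeq2 (-4.31) and limma-voom (-4.42). Signs turned, with no call, for IL18 under library totals (0.0095), IL33 without control library 2 (-0.29) or CBX7 library 2 (-0.70), IL1R2 without CBX7 library 1 (0.21), and NT5DC4 with limma-voom (0.32) or the replicate block (0.043).

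Leaving out 1 library, where the lone library of a line is assumed to vary like the other line, gave 1021 to 1790 genes called higher and 1689 to 2134 called lower, 4 to 5 members called lower, with log2 fold changes of -3.43 to -2.81 for IL1B, -0.84 to -0.68 for IL18R1, -2.90 to -1.70 for IL1RL1, -0.70 to 7.07 for IL33, -0.62 to 0.21 for IL1R2, -7.71 to -3.25 for IL1RN, -0.86 to 0.53 for IL18RAP, -0.081 to 0.29 for SIGIRR, -1.72 to 2.19 for NT5DC4 and -0.15 to 0.011 for CNOT11. Processing genes called higher were 0 to 1 then, and 2 under library totals or DESeq2. Library totals gave 1 signalling and 2 response genes called higher, and the mean count filter 2 response genes. Response genes called lower were 25 under the mean count filter and 30 with limma-voom. Processing genes called lower were 6 with limma-voom, and signalling genes called lower were 8 with DESeq2 or limma-voom. Same-numbered libraries did not deviate together (r = 0.028 across 17271 genes), so the numbers were not taken as pairs. The replicate block left 5 members called lower, with 2100 genes higher and 2503 lower in all. Depth limits IL1RN and IL33, which had at most 29 counts in any library.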
